A study of Mus musculus with 6 samples.

Results

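The integrated stress response and amino acid genes described here are 38 genes chosen by symbol: 13 ATF4 regulators and effectors, 8 enzymes of amino acid and one-carbon synthesis, 5 amino acid transporters and 12 cytosolic aminoacyl-tRNA synthetases. All 38 were found among the 52089 symbols of the deposited table, with 3 to 15 transcript accessions each and 277 accessions in all. Abundance is in RPKM, that is, read number divided by transcript length and by the library's mapped reads, and the value of a gene is the mean over its accessions. Of the members, 37 reached the mean of at least 1 RPKM that a gene needed to enter the test. *Pycr1*, which catalyses the last step of proline synthesis, was at 0.746 RPKM and is given as values alone.

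The libraries come from primary brite adipocytes, that is, white fat cells driven toward a thermogenic state. Stromal-vascular cells of the inguinal fat pad of 129SvEv mice were induced for 2 days and then differentiated for 1 day with rosiglitazone, a PPARγ agonist. Both groups were reverse transfected with a locked nucleic acid (LNA) Gapmer, an antisense oligonucleotide that directs cleavage of its target RNA, at 50 nM, and were harvested 24 h later. In the *Ctcflos* KD group (3 libraries) the Gapmer targets the long noncoding RNA *Ctcflos*, and in the NC ctrl group (3 libraries) it has no target. The comparison asks which transcripts differ after loss of *Ctcflos*. The KD libraries carry ASO1 according to the study, so that loss of *Ctcflos* and an effect of that oligonucleotide cannot be told apart. Neither the labels nor the methods say that the 3 libraries of a group are separate cultures. The p-values therefore measure only the spread between these libraries, which may be technical. In bulk RNA, fewer cells of a type and less RNA per cell cannot be told apart.

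In the integrated stress response, kinases that sense amino acid shortage, unfolded proteins in the endoplasmic reticulum, haem deficiency or double-stranded RNA phosphorylate the translation factor eIF2α. General translation falls, while the transcription factor ATF4 is translated more, through upstream open reading frames in its mRNA. *Atf4* mRNA thus does not report ATF4 protein. ATF4 binds DNA together with C/EBP proteins at a composite element and raises genes that make, import and charge amino acids, as well as genes that end the response. Serine and one-carbon enzymes, glutamine transport and the charging of tRNAs all belong to this programme.

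The composite element is printed here because it is the kind of sequence at which ATF4 binds. Its 8-base core TGATGNAA, or the reverse complement TTNCATCA, was searched on both strands in the 250 bases upstream of each RefSeq start site (GRCm38.p6). It lay in 8 of the 30 members with a window in the RefSeq table. Of these, 7 are shown. Each line gives 30 bases of the strand of the gene, 5′ to 3′, with the core in capitals.
Chac1 (chr2:119351038-119351067, plus strand): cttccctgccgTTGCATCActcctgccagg
Nupr1 (chr7:126625562-126625591, minus strand): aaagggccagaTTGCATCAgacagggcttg
Vldlr (chr19:27216809-27216838, plus strand): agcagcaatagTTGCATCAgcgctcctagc
Asns (chr6:7693214-7693243, minus strand): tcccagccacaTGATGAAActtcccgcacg
Pycr1 (chr11:120643833-120643862, minus strand): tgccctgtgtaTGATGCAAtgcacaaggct
Gars (chr6:55037960-55037989, plus strand): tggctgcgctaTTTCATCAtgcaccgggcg
Tars (chr15:11399659-11399688, minus strand): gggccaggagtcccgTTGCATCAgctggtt

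The core reads TTGCATCA in *Chac1*, *Nupr1*, *Vldlr* and *Tars*, TTTCATCA in *Gars*, TGATGAAA in *Asns* and TGATGCAA in *Pycr1*. Its first base lies 15 bases before the start site in *Tars*, 23 in *Asns* and 30 in *Gars*, and between 103 and 200 bases before it in the other 5. The core was present in 26.7% of the members with a window, 3.91% of all 27025 genes in the RefSeq table and 3.45% of all 32851 windows. The members were chosen around the ATF4 pathway and the processes it regulates, so their share is a description. A match is not a binding site, and no match in a window says only that these letters are not in it.

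The *Ctcflos* transcript (1300015D01Rik) was at 0.0969, 0.0705 and 0.210 RPKM in the KD libraries and at 0.748, 0.751 and 0.840 RPKM in the NC libraries. The KD mean was 16.1% of the NC mean, and KD replicate 3 held the most residual transcript. From the steps between low RPKM values, the libraries hold between 60.8 and 79.2 mio mapped reads. Pairs of libraries correlated at r = 0.946 to 0.996 over genes (log2 scale). KD replicate 3 stood apart from the other KD libraries: its correlation with the NC libraries was 0.973 to 0.985, that of KD replicates 1 and 2 was 0.946 to 0.958. All 11 adipocyte markers had a mean of at least 1 RPKM, and their summed level was 4746 to 6260 RPKM in KD and 6437 to 7158 RPKM in NC. By limma, *Ucp1* (log2 fold change −1.21, adjusted p = 0.0481) and *Cebpa* (−0.89, 0.0381) were called lower and no adipocyte marker higher, while *Pparg* (−0.36, 0.0904), *Fabp4* (−0.30, 0.164) and *Adipoq* (−0.55, 0.0687) did not pass. Of the 11, 10 had a negative log2 fold change, beside 5481 of all 11701 genes tested, and their median was −0.41. Without overlap, 7 lay below NC (21.9% of all genes), and 8 had an unadjusted limma p under 0.05 (38.9% of all genes). The 2 called are 18.2% of the 11, beside 24.0% of all genes. The leukocyte markers summed to 7.24 to 16.9 RPKM in KD and 9.17 to 28.6 RPKM in NC, with *Cd3e* at 0 and 5 of 9 never reaching 1 RPKM. Of the 2 leukocyte markers tested, *Cd68* rose (1.05, limma adjusted p = 0.0230) and *Lyz2* did not pass (−1.45, 0.167). Endothelial and mural markers summed to 10.1 to 16.2 and 11.4 to 12.9 RPKM. Epithelial, muscle and erythroid markers summed to 1.51 to 2.91 and 2.30 to 4.91 RPKM, with 5 of 10 at 0. The part of these shifts in the members' values was not tested.

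In *Ctcflos* KD, 3 of the 37 tested members passed the test and 34 did not, which does not show that the 34 were unchanged. The 3 were 2 members of the transporter group and 1 of the synthetase group. *Slc3a2* and *Tars* rose and *Slc1a5* fell, whereas *Atf4* itself and its best-known targets *Ddit3*, *Trib3*, *Chac1* and *Asns* did not pass. These 3 are 8.11% of the 37 tested members. Over all 11701 genes tested, 24.0% were called (11.5% higher and 12.4% lower, limma on log2(RPKM + 1), Benjamini-Hochberg adjusted p under 0.05). Of the members, 2 were called higher and 1 lower. At an unadjusted p under 0.05 there were 9 members, against 38.9% of all genes. The median log2 fold change was 0.052 over the members and 0.028 over all genes. In 12 of 37 members the 3 KD values lay all above (8) or all below (4) the 3 NC values, while this held for 44.8% of all genes. An absolute log2 fold change under 0.25 was found for 24 of 37 members and for 52.7% of all genes. For 31 of the 34 members that were not called, the 95% interval of the log2 fold change lay within a change of 1 in either direction, and for 23 it lay within 0.585, a 1.5-fold change.

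The calls rest on nearly every library. The log2 fold changes of the 3 called members kept their sign in every alternative fit. They ranged from 0.64 to 1.02 for *Slc3a2*, from 0.32 to 0.46 for *Tars* and from −1.08 to −0.59 for *Slc1a5*. Without KD replicate 1 or 2, or without NC replicate 1, 2 or 3, none of the 37 members was called by limma (4 to 8 at an unadjusted p under 0.05), while 10.1%, 9.31%, 3.60%, 13.5% and 3.16% of all genes were, in that order. Without KD replicate 3, 12 members were called (*Aars*, *Atf4*, *Eif4ebp1*, *Nars*, *Nupr1*, *Phgdh*, *Ppp1r15a*, *Shmt2*, *Slc1a5*, *Slc38a2*, *Slc3a2* and *Tars*), beside 41.1% of all genes. With all 6 libraries and other settings, 3 members and 23.5% of all genes were called with a pseudocount of 0.1, 6 and 25.3% with median-of-ratios scaling, 4 and 30.4% from RefSeq mRNA accessions alone, and 5 and 22.6% with the median over accessions. With a replicate block 1 member and 14.3% of all genes were called. Without a filter on low values it was 0 of 38 members (10 at an unadjusted p under 0.05) and 4.71%, and at an adjusted p of 0.01 it was 0 of 37 and 4.47%. In all 12 members whose groups did not overlap, KD replicate 3 was the KD library nearest to the NC mean. Over all 5240 genes without overlap, this was so for 70.6%.

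**Figure D1:**
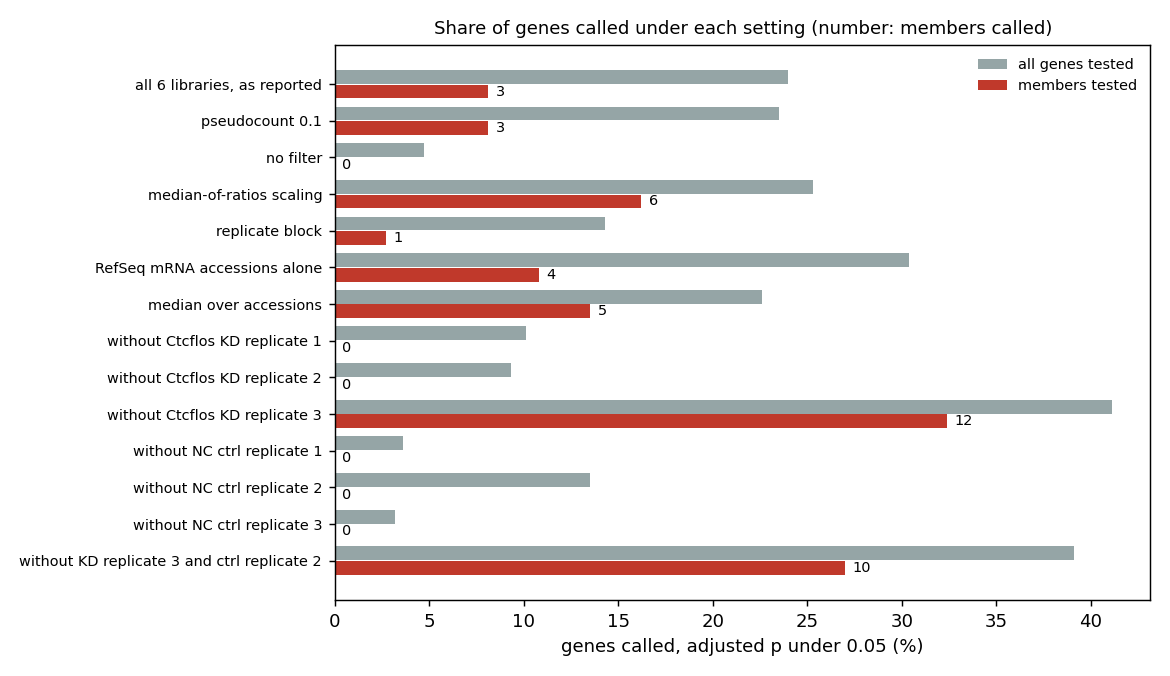
Share of the tested members and of all tested genes that were called in each fit, in percent. Numbers beside the bars are the members called. The members' share ranges from 0 to 32.4%, and that of all genes from 3.16% to 41.1%.

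**Figure D2:**
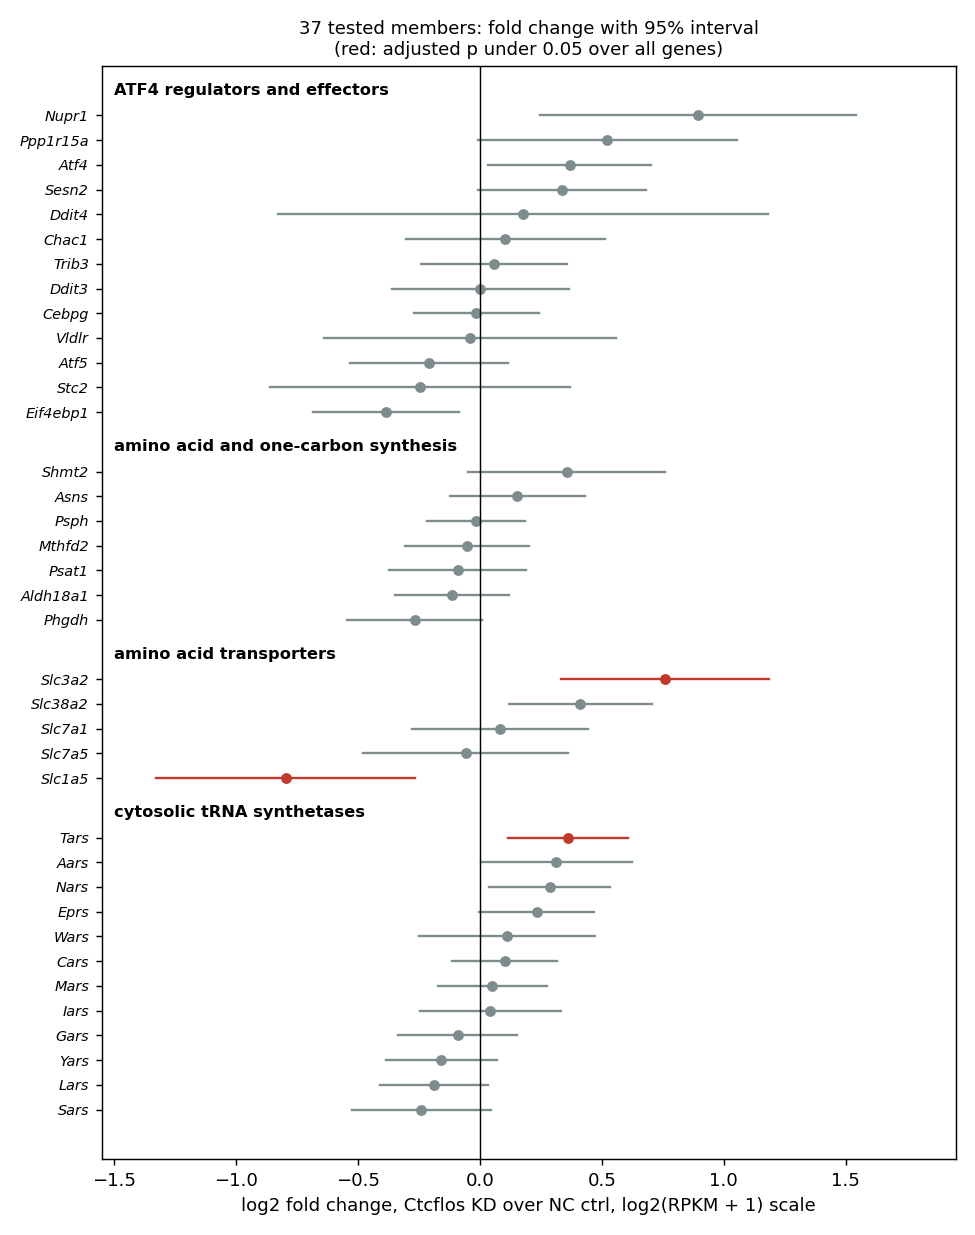
Log2 fold change (*Ctcflos* KD minus NC ctrl, on log2(RPKM + 1)) of the 37 tested members by role, with the 95% interval of the limma fit as bars. Red points are the members with adjusted p under 0.05, *Slc3a2* (0.76), *Tars* (0.36) and *Slc1a5* (−0.80), and most of the other intervals cross 0.

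Of the 5 transporters, the shared heavy chain of several exchangers rose, a glutamine transporter fell, and 3 were not called. The 2 called are 40% of this small group, beside 24.0% of all genes. *Slc3a2* (chr19:8706882-8723369, minus strand, GRCm38) encodes CD98hc, the heavy chain that carries light chains such as LAT1 to the cell surface. It was at 22.6, 23.7 and 14.5 RPKM in KD and at 10.2, 12.2 and 11.6 RPKM in NC. All KD libraries lay above all NC libraries, and KD replicate 3 was the closest to them. The mean was 20.3 ± 5.03 (SD, n = 3) in KD and 11.3 ± 1.07 (SD, n = 3) in NC. This is a 1.79-fold difference (log2 fold change 0.76, SE 0.186, limma adjusted p = 0.0243). Each of its 8 accessions at or above 0.1 RPKM was higher in KD, at 149% to 183% of NC. Accessions of a gene share reads and are not independent.

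*Slc1a5* (chr7:16781340-16798274, plus strand) encodes ASCT2, which exchanges glutamine and other neutral amino acids. Its level was 11.0, 9.0 and 18.8 RPKM in KD and 21.1, 24.0 and 21.5 RPKM in NC. The KD libraries lay below the NC libraries, with KD replicate 3 far above the other KD values. The mean was 12.9 ± 5.15 (SD, n = 3) against 22.2 ± 1.57 (SD, n = 3), a ratio of 0.582. The log2 fold change was −0.80 (SE 0.231, limma adjusted p = 0.0415), and all 7 accessions were lower, at 42.0% to 59.2% of NC.

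*Slc38a2* encodes SNAT2, a sodium-coupled carrier of small neutral amino acids. It measured 21.2, 18.3 and 17.6 RPKM in KD and 16.0, 13.1 and 13.2 RPKM in NC, without overlap. With a log2 fold change of 0.41 (SE 0.128) and a limma adjusted p = 0.0501, it lay just outside the threshold. *Slc38a2*, *Ppp1r15a*, *Ddit4*, *Stc2* and *Vldlr* are given by library because of values seen in the data. *Slc7a5* encodes LAT1, the light chain that joins CD98hc to import large neutral amino acids. Its KD values were 3.69, 1.89 and 3.21 RPKM and its NC values 2.78, 3.58 and 2.72 RPKM, so that the groups overlapped (log2 fold change −0.06, limma adjusted p = 0.836). The gene lies whole within the antisense model *Gm20388*, and reads of both cannot be told apart if the counting ignored strand. *Slc7a1*, the cationic transporter CAT1, was at 1.83 ± 0.481 in KD and 1.67 ± 0.429 RPKM in NC (SD, n = 3), also with overlap.

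**Figure D3:**
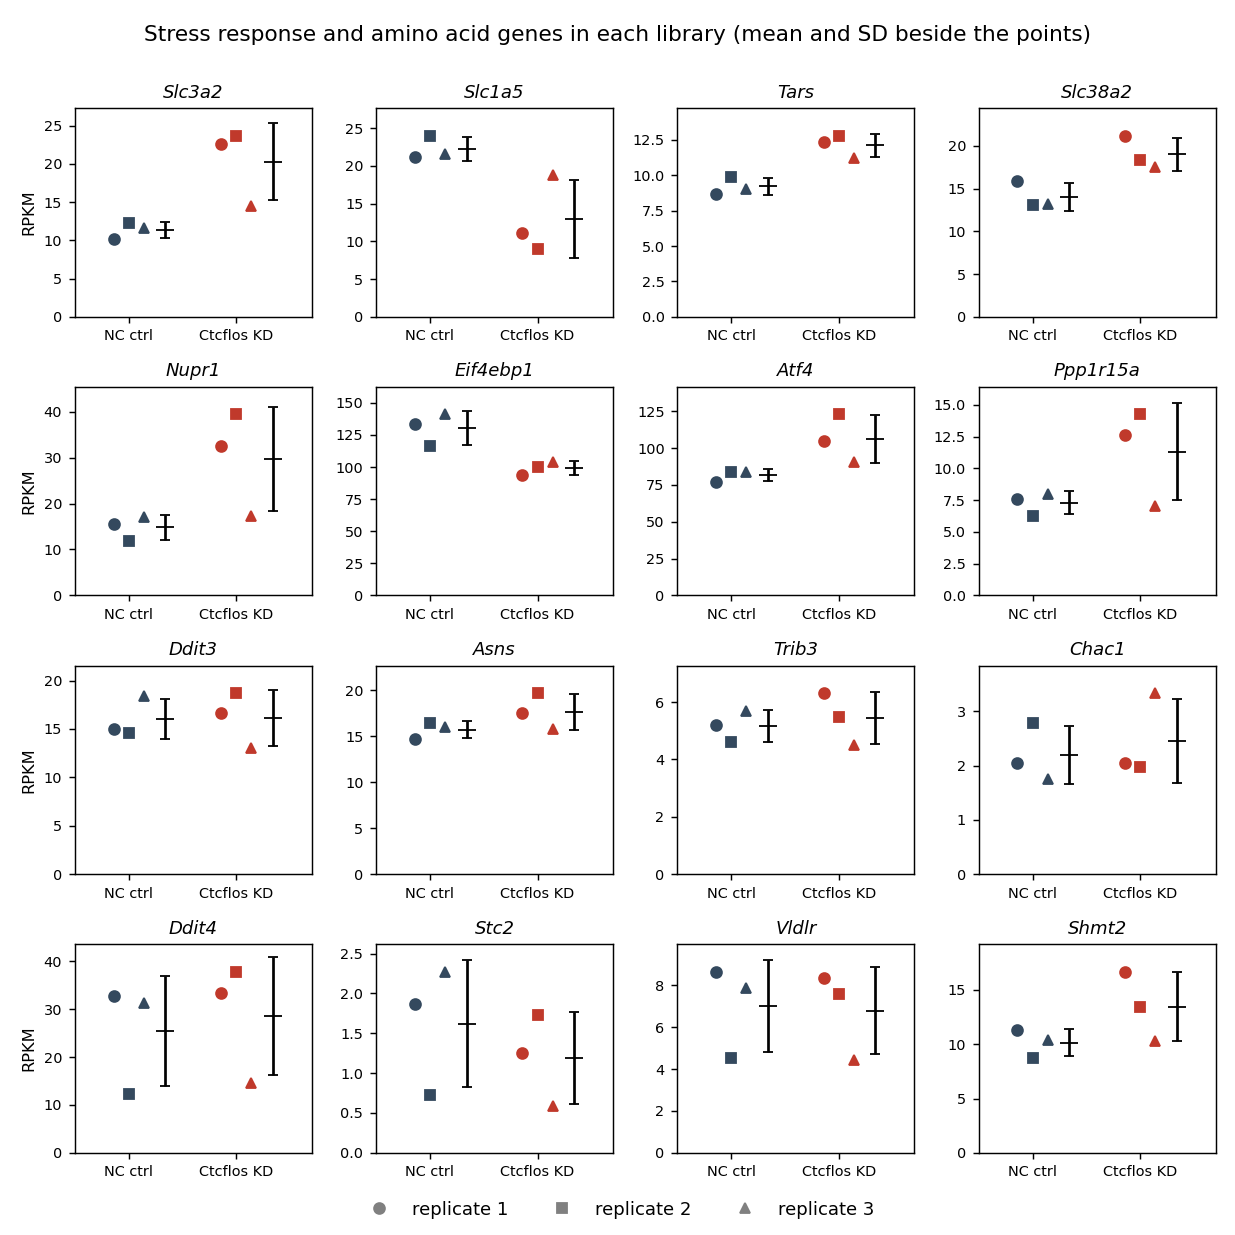
RPKM in each library (linear axes from 0) for 16 members, with NC and KD replicates as points and the mean ± SD beside them. The KD points of *Slc3a2* and *Tars* sit above and those of *Slc1a5* below all NC points, and KD replicate 3 lies nearest to NC in each of the 3.

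Among the 12 cytosolic tRNA synthetases, which charge each tRNA with its amino acid, 1 rose, none fell, and 11 were not called. The share called was 8.33%, beside 24.0% of all genes. Threonyl-tRNA synthetase, *Tars* (chr15:11382301-11399665, minus strand), was at 12.4, 12.8 and 11.2 RPKM in KD and at 8.67, 9.91 and 9.05 RPKM in NC. The groups did not overlap, and the KD libraries lay close together. *Tars* averaged 12.1 ± 0.819 in KD and 9.21 ± 0.633 in NC (SD, n = 3), which is 1.32-fold (log2 fold change 0.36, SE 0.106, limma adjusted p = 0.0428). Its 3 accessions were at 131% to 133% of NC. The core printed above for *Tars* begins closest to the start site of the 8. *Sars*, the seryl-tRNA synthetase, had the lowest log2 fold change of the group. Its KD values of 14.4, 16.9 and 13.3 RPKM overlapped the NC values of 16.5, 17.5 and 19.0 RPKM (−0.24, SE 0.124, limma adjusted p = 0.190).

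Of the other synthetases, *Nars* (asparaginyl, 18.03 ± 1.42 against 14.6 ± 0.451 RPKM, SD, n = 3) lay above NC in every KD library with a log2 fold change of 0.29 and a limma adjusted p = 0.0883. *Eprs*, which charges both glutamate and proline, also lay above NC without overlap (0.23, 0.132). *Lars* (leucyl, −0.19, 0.184) and *Yars* (tyrosyl, −0.16, 0.272) lay below NC without overlap and did not pass. *Aars* (alanyl) had a log2 fold change of 0.31 (limma adjusted p = 0.125), and its gene overlaps *Exosc6* by 1326 bases on the same strand. *Cars*, *Gars*, *Iars*, *Mars* and *Wars*, for cysteine, glycine, isoleucine, methionine and tryptophan, had log2 fold changes of 0.10, −0.09, 0.04, 0.05 and 0.11, all with overlap. The median over the 12 was 0.077, and 5 of 12 had no overlap (3 above and 2 below NC), beside 44.8% of all genes.

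The 13 ATF4 regulators and effectors held no call by limma, 3 members at an unadjusted p under 0.05 (*Atf4*, *Eif4ebp1* and *Nupr1*) and a median log2 fold change of 0.058. In 4 of the 13 the groups did not overlap. Over all genes, 24.0% were called, 38.9% had an unadjusted p under 0.05 and 44.8% had no overlap. *Atf4* (chr15:80255184-80257541, plus strand) was at 105, 123 and 90.7 RPKM in KD and at 76.9, 84.1 and 83.6 RPKM in NC. Every KD library lay above every NC library. The mean of 106 ± 16.2 against 81.5 ± 4.01 (SD, n = 3) gave a log2 fold change of 0.37 (SE 0.145, 95% interval 0.04 to 0.70) with a limma adjusted p = 0.0987. *Ddit3* encodes CHOP, the transcription factor of the late, death-promoting phase. It was at 16.6, 18.7 and 13.0 RPKM in KD and at 15.0, 14.6 and 18.4 RPKM in NC. The groups overlapped, and the log2 fold change was 0.0017 (SE 0.157, 95% interval −0.36 to 0.36, limma adjusted p = 0.995). *Ddit3* and *Mars* overlap by 68 bases on opposite strands.

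*Trib3*, a pseudokinase that restrains ATF4, measured 6.32, 5.48 and 4.51 RPKM in KD and 5.19, 4.60 and 5.69 RPKM in NC. With 0.06 (limma adjusted p = 0.769) its log2 fold change was smaller than the spread within each group. *Chac1*, which degrades glutathione, was at 2.04, 1.98 and 3.34 RPKM in KD and at 2.04, 2.78 and 1.75 RPKM in NC. KD replicate 3 was the highest of the 6 libraries, the groups overlapped, and the log2 fold change was 0.11 (limma adjusted p = 0.685). *Cebpg* and *Atf5*, which encode relatives of ATF4 with a leucine zipper, had log2 fold changes of −0.01 and −0.21 with overlap.

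*Nupr1*, a small stress-induced nuclear protein, had the highest log2 fold change of all members. It was at 32.4, 39.4 and 17.3 RPKM in KD and at 15.5, 11.9 and 17.1 RPKM in NC. KD replicate 3 exceeded the highest NC library by little, and the other KD libraries lay far above. The mean was 29.7 ± 11.3 against 14.8 ± 2.67 (SD, n = 3), 2.00-fold, with a log2 fold change of 0.89 (SE 0.281) and a limma adjusted p = 0.0518, just outside the threshold. *Eif4ebp1*, whose protein 4E-BP1 holds back cap-dependent translation, had the lowest log2 fold change of the regulators. It was at 93.9, 99.9 and 104 RPKM in KD and at 134, 116 and 141 RPKM in NC, without overlap (−0.39, SE 0.130, limma adjusted p = 0.0649).

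*Ppp1r15a* and *Sesn2* had KD means above NC and no call. *Ppp1r15a* encodes GADD34, which brings a phosphatase to eIF2α and so ends the response. It was at 12.7, 14.3 and 7.01 RPKM in KD and at 7.60, 6.27 and 8.02 RPKM in NC. KD replicate 3 fell within the NC range, and the log2 fold change was 0.52 (SE 0.231, limma adjusted p = 0.133). *Sesn2*, a leucine sensor upstream of mTORC1, lay above NC in every KD library (2.65 ± 0.752 against 1.86 ± 0.241 RPKM, SD, n = 3) with a limma adjusted p = 0.133.

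*Ddit4*, *Stc2* and *Vldlr* split the libraries in another way than by group. *Ddit4* encodes REDD1, an inhibitor of mTORC1, and was at 33.5, 37.9 and 14.6 RPKM in KD and at 32.7, 12.3 and 31.3 RPKM in NC. *Stc2*, a secreted glycoprotein, was at 1.26, 1.73 and 0.584 against 1.86, 0.727 and 2.27 RPKM. The lipoprotein receptor gene *Vldlr* was at 8.33, 7.60 and 4.43 against 8.66, 4.55 and 7.87 RPKM. In each of the 3, KD replicate 3 and NC replicate 2 were the lowest libraries of their groups, and the log2 fold changes were 0.18, −0.24 and −0.04 (limma adjusted p = 0.789, 0.525 and 0.919). The summed leukocyte markers were highest in the same libraries, at 16.9 RPKM in KD replicate 3 and 28.6 RPKM in NC replicate 2. Most of each of these sums was *Lyz2* alone, and the other tested marker, *Cd68*, was called higher in KD. The part of leukocyte markers in the values of *Ddit4*, *Stc2* and *Vldlr* was not tested. When KD replicate 3 and NC replicate 2 were both left out, 10 members and 39.1% of all genes were called.

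**Figure D4:**
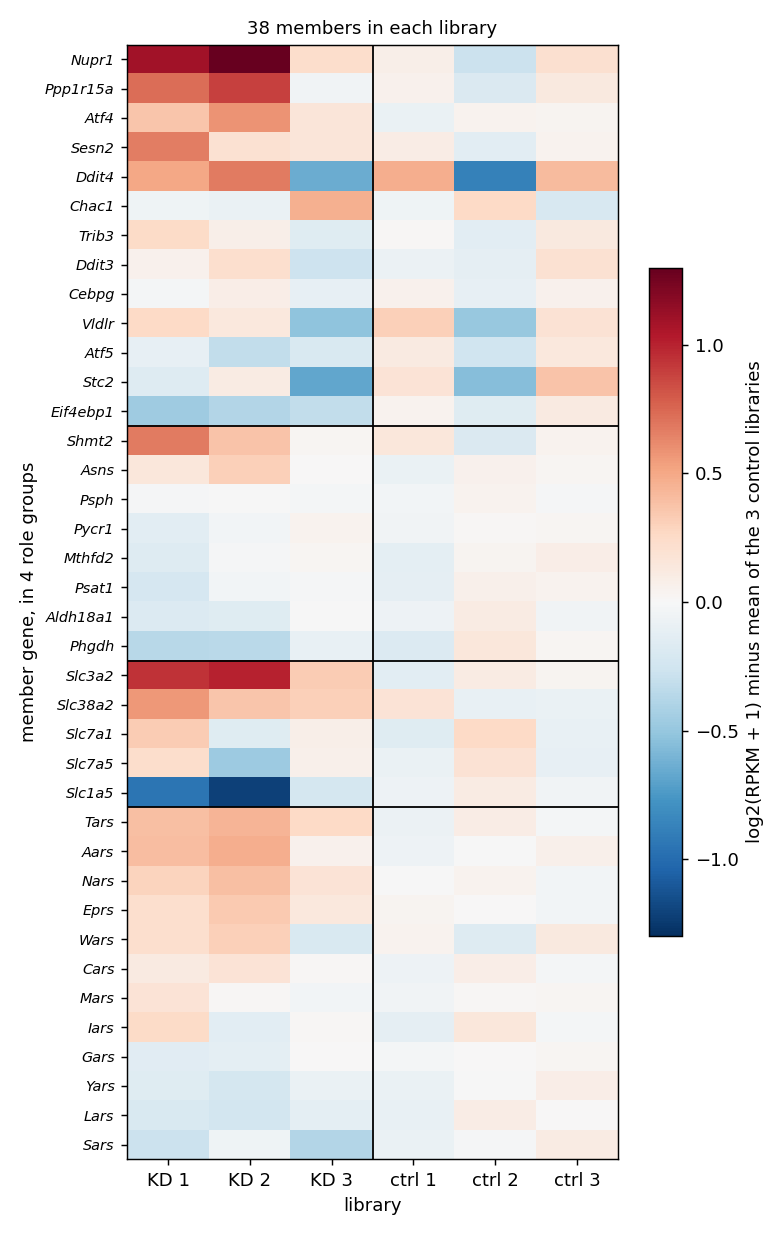
Level of each member in the 6 libraries as log2(RPKM + 1) minus the mean of the 3 NC libraries (ctrl) of that member, ordered by role. KD replicate 3 and NC replicate 2 are low together in *Ddit4*, *Stc2* and *Vldlr*, and *Slc3a2* and *Slc1a5* separate the groups in opposite directions.

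None of the 7 tested enzymes of amino acid and one-carbon synthesis was called by limma, none had an unadjusted p under 0.05, and none separated the groups. Over all genes these shares were 24.0%, 38.9% and 44.8%, in that order. The median log2 fold change was −0.05. *Asns*, which makes asparagine, was at 17.5, 19.7 and 15.8 RPKM in KD and at 14.7, 16.4 and 16.1 RPKM in NC. The ranges overlapped, with a log2 fold change of 0.15 (SE 0.120, 95% interval −0.12 to 0.43, limma adjusted p = 0.369). *Shmt2*, which passes the one-carbon unit of serine to folate in mitochondria, was at 16.7, 13.4 and 10.3 RPKM in KD and at 11.3, 8.76 and 10.4 RPKM in NC. It had the highest log2 fold change of the enzymes, 0.36 (SE 0.175, limma adjusted p = 0.169). *Phgdh*, the first enzyme of serine synthesis, was at 2.14, 2.16 and 2.75 RPKM in KD and at 2.56, 3.46 and 3.09 RPKM in NC. Its log2 fold change of −0.27 (SE 0.121, limma adjusted p = 0.140) was the lowest of the enzymes, opposite in sign to that of *Shmt2*.

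*Psat1* and *Psph*, the following steps of serine synthesis, had log2 fold changes of −0.09 and −0.02. For *Psph* the 95% interval ran from −0.22 to 0.19. *Mthfd2* of mitochondrial folate metabolism (−0.05) and *Aldh18a1*, which begins proline synthesis (−0.11), also overlapped between the groups. *Pycr1* was at 0.606, 0.733 and 0.825 RPKM in KD and at 0.721, 0.787 and 0.806 RPKM in NC, with overlap.

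The calls were also read by the presence of the composite core. Of the 7 tested members with it, 1 was called (*Tars*), and their median log2 fold change was 0.15. Among the 22 tested members with a window and no core, 1 was called (*Slc3a2*), with a median of 0.02. Over all tested genes, 22.5% of the 160 with the core and 25.9% of the 6790 without it were called, with medians of 0.01 and 0.03. *Slc1a5*, *Slc7a5*, *Eif4ebp1*, *Cars*, *Lars*, *Nars*, *Wars* and *Mars* were not matched to a window.

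Neighbouring genes of the same pathways were read from 8 further lists. Of 25 tested other ATF4 targets and partners, 6 rose and 3 fell (36% called, beside 24.0% of all genes), and the median log2 fold change was −0.13, below 0. *Gdf15*, a secreted stress cytokine, was at 14.4, 13.0 and 5.66 RPKM in KD and at 2.93, 2.78 and 2.76 RPKM in NC (1.56, SE 0.282, limma adjusted p = 0.0106). *Klf4* (1.34), *Atf3* (0.98) and the death receptor gene *Tnfrsf10b* (0.92) rose as well. KD replicate 3 had the lowest KD value of *Gdf15*, *Klf4*, *Atf3* and *Tnfrsf10b*. *Mthfd1l* (−0.91) and *Aldh1l2* (−0.56) of mitochondrial folate metabolism and *Herpud1* (−0.35) of endoplasmic reticulum protein degradation fell. The members and this list thus hold called genes in both directions.

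The shares called in the following lists stand beside 24.0% of all genes. Around eIF2α, 3 of 15 tested genes rose and 2 fell (33.3%). *Eif2s2* (0.51) and *Eif2s3x* (0.47), subunits of eIF2, and *Eif2b1* (0.33), a subunit of its exchange factor, were higher. The adaptor *Nck1* (−0.62) and the double-stranded RNA kinase *Eif2ak2* (−0.40) were lower. Among 10 tested other cytosolic synthetases and scaffold genes, *Kars* (0.60), *Rars* (0.55) and *Eef1e1* (0.41) rose, *Farsb* (−0.46) fell (40%), and the median was 0.28. Of 15 mitochondrial synthetases, *Tars2* (0.38) rose and *Fars2* (−0.94) fell (13.3%). *Slc38a10* (−0.61) and *Slc1a3* (−0.42) fell among 10 other amino acid transporters, and none rose (20% called). Of 27 tested other amino acid and one-carbon enzymes, 3 rose and 4 fell (25.9%). Those that rose included *Glul* (0.55) and *Ahcy* (0.48), and those that fell included *Mthfd1l*, *Aldh1l1* (−0.69) and *Aldh1l2*. *Mthfd1l* and *Aldh1l2* are also in the list of other ATF4 targets, so that they are counted in both lists. In the mTORC1 list of 19 tested genes, *Eif4e* (0.39) rose and *Mtor* (−0.45) and *Tsc1* (−0.37) fell (15.8%).

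The XBP1 and ATF6 arm of the unfolded protein response, which raises chaperones of the endoplasmic reticulum, had 9 of 19 tested genes lower (47.4%) and none higher, while 12.4% of all genes were called lower. Its median log2 fold change was −0.40, beside 0.052 for the 37 members, 0.028 for all genes and −0.41 for the 11 adipocyte markers. The transcription factor genes *Atf6* (−0.93) and *Xbp1* (−0.73), the disulfide isomerase gene *Pdia4* (−0.69) and the chaperone gene *Calr* (−0.63) had the lowest values of those that fell. *Xbp1* was at 29.5, 36.3 and 37.3 RPKM in KD and at 56.3, 55.9 and 60.5 RPKM in NC, and in 15 of the 19 genes every KD library lay below every NC library, which held for 21.9% of all genes. No gene of this arm had all KD libraries above NC.

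**Figure D5:**
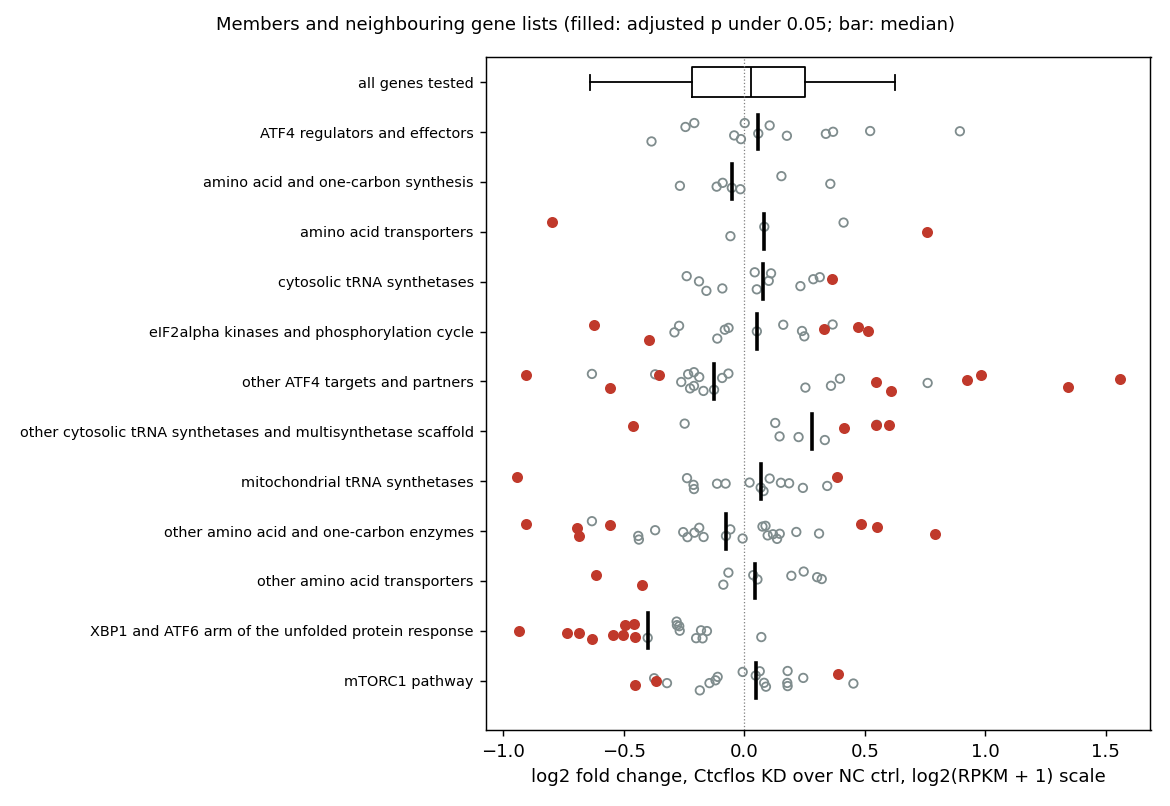
Log2 fold change (*Ctcflos* KD minus NC ctrl) of each tested gene in the 4 role groups of members and the 8 neighbouring lists, with the median as a bar and filled points for adjusted p under 0.05. The box shows the quartiles and median of all genes tested, with whiskers at the 5th and 95th percentiles. The XBP1 and ATF6 arm has its median at −0.40 with 9 genes lower and none higher, and the 4 role groups have medians between −0.05 and 0.08.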

How the data were processed

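Total RNA was sequenced after a stranded library preparation (*Ctcflos* KD, n = 3 libraries, and NC ctrl, n = 3 libraries), and groups were taken from the sample titles. The authors deposited a single table of RPKM values per transcript accession with decimal commas, and no read counts were used. The study names STAR and GRCm38 for the alignment of these libraries in its splice analysis. Whether the RPKM table came from that alignment, how reads were counted, and the handling of multiply mapped and antisense reads are not given in the sources used here. After 305 exact repeats were removed, 168021 of 168326 lines were averaged per symbol.

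log2(RPKM + 1) was fitted with limma 3.58.1 (trend, R 4.3.3) over all 11701 genes with a mean of at least 1 RPKM, two-sided with Benjamini-Hochberg adjustment. Fold changes on this scale understate the change of genes of low abundance. Data were simulated for this comparison with noise independent between genes (11701 genes, of which 200 had a true log2 difference of 1). Of the shifted genes, 80% were called, beside 9 false calls. This difference is larger than the change of any member, so the share does not tell how often changes of the members' size are found. Because the simulated noise was independent between genes and libraries, the 9 do not give the number of false calls in these data. *Ctcflos* was fitted without the filter. With 3 against 3 libraries an exact permutation test cannot go below p = 0.1.

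Mapped reads per library were read from the steps of low RPKM values of transcripts of known length, of which at least 95.3% came out whole within 0.05 reads. For 24 members with such a transcript, the deepest carried a median of 952 reads (7 to 9722). The 7 reads are those of a minor *Phgdh* transcript at 0.154 RPKM in KD and 0.115 RPKM in NC. Reads of the RefSeq mRNA of *Phgdh*, at 4.60 RPKM in KD and 5.97 RPKM in NC, were not derived. The range is thus that of the transcripts with a known length, not of the members. Coordinates are from Gencode vM21 on GRCm38. The members span 2.2 to 72.5 kb, and 8 overlap another protein-coding gene, so that their values are uncertain. Promoter windows are from RefSeq (GRCm38.p6).

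Each member may be named. Values by library are given for called members, for *Atf4*, *Ddit3*, *Asns*, *Trib3* and *Chac1*, and for the most raised and most lowered member of each role. In other lists at most the 4 called genes of largest change per direction are named. Some genes and sequences that this rule would give are not reported here. Members and lists were chosen with earlier results of these data known. Alternatives were another pseudocount (0.1), no filter, median-of-ratios scaling, a replicate block, RefSeq mRNA accessions alone, the median over accessions, leaving out each library, and an adjusted p of 0.01.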

Additional observations from a re-analysis of the deposited data

How the results depend on the processing

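Over all genes, the count of 2803 became 1807 without a filter, 1671 with a replicate block, 523 at an adjusted p of 0.01 and 369 to 4810 when a library was left out. The 2 members called higher became 0 without a filter, 4 with median-of-ratios scaling, 1 with a replicate block, 4 with the median over accessions, 0 at an adjusted p of 0.01 and 0 to 9 when a library was left out. The 1 member called lower became 0, 2, 0, 1, 0 and 0 to 3 in the same order. Without a filter, limma gave 10 members an unadjusted p under 0.05. Leaving out both KD replicate 3 and NC replicate 2, chosen after seeing the data, gave 4577 genes, 8 members higher and 2 lower. *Nupr1* and *Slc38a2* passed with median-of-ratios scaling and with the median over accessions. Pairing was read from the deviations of each library from its group mean, correlated over genes (log2 scale), not from the levels themselves. On these deviations the same replicate numbers did not pair the libraries (r = 0.29, −0.29 and −0.42). Deviations of KD replicate 2 correlated best with those of NC replicate 3 (0.50), and KD replicate 3 with NC replicate 2 (0.42). Deviations cancel out within a group, so these r are not independent. With the replicate block *Slc3a2* alone was called.

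For *Ctcflos*, the replicate block left the log2 fold change at −0.66 (limma adjusted p = 0.113), and leaving out a library gave −0.72 to −0.63 (0.00973 to 0.130), while a pseudocount of 0.1 gave −2.01 (0.0191). Of 37 members, 25 kept their direction in every alternative, and the other 12 had an absolute log2 fold change of at most 0.177. When a library or both were left out, these 12 ranged over both signs: −0.0694 to 0.031 for *Cebpg*, −0.108 to 0.14 for *Ddit3*, −0.262 to 0.587 for *Ddit4*, −0.0395 to 0.165 for *Trib3*, −0.071 to 0.235 for *Chac1*, −0.288 to 0.199 for *Vldlr*, −0.0315 to 0.01 for *Psph*, −0.113 to 0.00818 for *Mthfd2*, −0.041 to 0.213 for *Slc7a1*, −0.20 to 0.148 for *Slc7a5*, −0.0618 to 0.135 for *Iars* and −0.0108 to 0.105 for *Mars*. Other reversals were −0.0265 for *Ddit3* (median-of-ratios scaling), 0.0243 for *Psph* and −0.0050 for *Iars* (RefSeq mRNA alone), −0.0070 for *Slc7a1* (median over accessions) and 0.010 for *Psph* (both libraries left out). The cause was not tested.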

Other observations

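*Ero1l* and *Vegfa* of the other ATF4 targets, chosen after their values were seen, had the same low libraries as *Ddit4*. *Ero1l*, an oxidase of the endoplasmic reticulum, was at 27.8, 32.5 and 10.6 RPKM in KD and at 36.3, 13.6 and 34.5 RPKM in NC. *Vegfa*, an angiogenic factor, was at 29.2, 30.9 and 14.8 against 32.7, 17.6 and 33.4 RPKM. *Lyz2*, a macrophage marker, was highest in the same libraries, at 12.8 RPKM in KD replicate 3 and 24.5 RPKM in NC replicate 2. *Slc7a6*, another light chain of CD98hc, and *Slc7a11* are given outside the rule for naming genes. *Slc7a6* was higher in every KD library (8.20, 9.31 and 8.08 against 6.45, 6.82 and 6.90 RPKM), as were 22.9% of all genes. It was not called (limma adjusted p = 0.0611), and *Slc7a11* had a log2 fold change of −0.07.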
